A study of Mus musculus with 8 samples.

Results

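The proteasome genes of mouse islets of Langerhans were examined across 4 groups of Affymetrix arrays with 2 arrays each. They were taken as every gene symbol that begins with Psma, Psmb, Psmc, Psmd, Psme, Psmf or Psmg followed by a number, which gave 47 of the 17097 genes with a probe set of their own. The islets came from wild-type mice and from hIAPP mice, which carry a transgene for human islet amyloid polypeptide under the Ins2 promoter, a promoter active in beta cells. Both genotypes carry the strain label FVB/N-Tg(Ins2-IAPP)RFHSoel/J. In each genotype 1 group was left untreated and the other received 4-phenylbutyrate (PBA), a small fatty acid used as a chemical chaperone and known to inhibit histone deacetylases, at 1 g/kg/day in water for 12 weeks from 8 weeks of age. All islets were isolated at 20 weeks of age. The labels do not say whether an array holds the islets of 1 mouse or of several, so p-values measure the spread between these arrays, which may be technical.

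The 26S proteasome degrades proteins that carry ubiquitin chains. Its 20S core is a barrel of alpha and beta rings whose beta rings hold the catalytic subunits Psmb5, Psmb6 and Psmb7, and its 19S cap binds ubiquitin, unfolds the substrate and opens the barrel. Interferon gamma induces Psmb8, Psmb9 and Psmb10, which replace Psmb5, Psmb6 and Psmb7 in that order and give the immunoproteasome, a form that cuts peptides for MHC class I; immune cells hold it at high levels. In most cells a shortage of proteasome activity raises the constitutive subunits together through the transcription factor Nfe2l1.

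The upstream sequences of the 3 immunoproteasome genes, and of the 2 constitutive partners with an entry, are shown because the results below turn on these genes. Each is the 250 bases before the annotated start, 5′ to 3′ on the gene's strand, from RefSeq on GRCm38.p6, and 39 of the 47 genes had at least 1 such window. Capitals mark TTCNNNGAA, the gamma-activated site motif, in Psmb8, and TGACNNNGC, the core of the antioxidant response element, in Psmb5 and Psmb6. The windows are chr17:34197945-34198194 (plus strand) for Psmb8, chr17:34187331-34187580 (minus) for Psmb9, chr8:105938393-105938642 (minus) for Psmb10, chr14:54617996-54618245 (minus) for Psmb5 and chr11:70525107-70525356 (plus) for Psmb6.
Psmb8: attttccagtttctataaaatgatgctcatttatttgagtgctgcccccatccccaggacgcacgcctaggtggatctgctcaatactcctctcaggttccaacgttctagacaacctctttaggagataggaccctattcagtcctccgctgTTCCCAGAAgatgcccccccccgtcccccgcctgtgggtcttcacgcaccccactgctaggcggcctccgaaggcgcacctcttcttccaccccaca
Psmb9: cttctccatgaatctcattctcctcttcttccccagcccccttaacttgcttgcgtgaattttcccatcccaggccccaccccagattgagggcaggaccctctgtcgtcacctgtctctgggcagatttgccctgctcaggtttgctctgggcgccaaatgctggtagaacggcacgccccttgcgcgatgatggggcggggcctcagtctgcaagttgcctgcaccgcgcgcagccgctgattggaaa
Psmb10: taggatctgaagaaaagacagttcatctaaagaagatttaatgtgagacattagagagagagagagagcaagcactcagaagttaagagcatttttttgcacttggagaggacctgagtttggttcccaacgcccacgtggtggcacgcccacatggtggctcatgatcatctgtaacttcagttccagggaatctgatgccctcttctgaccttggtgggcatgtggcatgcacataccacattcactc
Psmb5: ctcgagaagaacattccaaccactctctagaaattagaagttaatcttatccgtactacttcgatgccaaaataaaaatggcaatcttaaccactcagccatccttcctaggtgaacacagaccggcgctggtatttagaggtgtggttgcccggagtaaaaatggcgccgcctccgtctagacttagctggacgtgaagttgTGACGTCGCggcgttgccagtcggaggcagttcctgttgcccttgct
Psmb6: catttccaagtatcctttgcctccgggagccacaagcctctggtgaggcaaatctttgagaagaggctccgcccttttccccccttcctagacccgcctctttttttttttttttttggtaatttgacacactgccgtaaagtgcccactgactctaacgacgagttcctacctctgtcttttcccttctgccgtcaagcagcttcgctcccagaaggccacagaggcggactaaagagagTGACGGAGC
The Psmb9 and Psmb8 genes are neighbours on chromosome 17, in the MHC, with the peptide transporter gene Tap1 between them. Searched on both strands, TTCNNNGAA occurred in 2 of the 43 windows of proteasome genes (4.65%, Psmb8 and Psmg1) and in 7.02% of all 32851 windows. TGACNNNGC occurred in 4 of 43 (9.30%, Psmb5, Psmb6, Psmd9 and Psmd12) against 10.2% of all windows. The core of the interferon-stimulated response element (GAAA, 2 bases of any kind, GAAA) occurred in 3 of 43 (6.98%, Psmb3, Psmd4 and Psmd9) against 2.98%, and the CCAAT box in 15 of 43 (34.9%) against 33.8%. None of the first 3 motifs was found in the windows of Psmb9 and Psmb10. A match is a run of letters in this window and was not tested as a binding site.

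Values are RMA levels on a log2 scale, deposited to 1 decimal. Of the 47 genes, 45 had a mean above 4.685, the 95th percentile of the 23 non-specific control probe sets, and these means ran from 7.11 to 11.01. The other two were the testis form Psma8 and the thymus form Psmb11, at 3.0 to 3.7 and 2.9 to 3.5 over the 8 arrays, so no change is read from them. Psmc3ip, a meiotic recombination factor, and Psme3ip1, a partner of Psme3, entered by spelling alone. Psmc6, Psmd10 and Psme4 had no probe set that names them alone and are not analysed here.

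Several arrays stood apart. The median over all genes was 5.90 on both untreated hIAPP arrays and 5.70 on each of the other 6. The median change per gene was -0.05 for the transgene and 0.00 for PBA in hIAPP islets, so genes do not share a shift of 0.20. Subtracting array medians moves every change against untreated hIAPP islets by 0.20, and values on that scale are given as an alternative only. With each array's median subtracted, the genes past the threshold among all genes went from 70.9% to 24.9% higher for the transgene and from 22.0% to 74.6% higher for PBA in hIAPP islets. Array 1 of PBA-treated wild-type islets had a median of 6.30 over 14 hybridisation control probe sets, against 9.30 to 9.70 elsewhere. Array 1 of PBA-treated hIAPP islets had the lowest acinar marker level, with a list median of 9.0 against 10.35 to 12.50 on the other arrays. The beta-cell markers Pdx1, at 8.9 to 9.6, and Slc2a2, at 11.5 to 12.4, were well above the background limit on all 8 arrays.

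Among the 45 detected genes the 2 arrays of a group differed by a median of 0.10 in every group. In PBA-treated wild-type islets 9 genes differed by 0.3 or more between the 2 arrays, against 1 or 2 genes in the other groups. The range over all 8 arrays was 0.90 for Psmb8, 0.70 for Psmb9 and 0.90 for Psmb10, and its median over the other 42 detected genes was 0.30, from 0.10 to 0.70 (Psmg2). The range of the 4 group means was 0.85, 0.65 and 0.75 for Psmb8, Psmb9 and Psmb10. For the other 42 it had a median of 0.20 and reached at most 0.40, in Psmb3, Psmf1 and Psmg2. These ranges are a description and use 1 probe set per gene, and other probe sets of Psmf1 and Psmb3 spread more widely. In PBA-treated wild-type against untreated hIAPP islets, probe sets of Psmf1 were at 7.3 and 6.9 against 6.2 and 6.3, and at 8.1 and 7.9 against 7.3 and 7.1. A second probe set of Psmb3 was at 8.8 and 9.3 against 9.9 and 9.6.

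PBA-treated hIAPP islets had less mRNA for all 3 immunoproteasome catalytic subunits than untreated hIAPP islets, while no other proteasome gene passed the test. Psmb8, which replaces Psmb5 and carries the chymotrypsin-like activity of the immunoproteasome, was at 9.1 and 9.1 on the untreated hIAPP arrays and at 8.6 and 8.5 with PBA. It fell by 0.55 on the log2 scale (SE 0.10, 95% interval -0.78 to -0.32, adjusted p = 0.0177, limma). Its 2 groups did not overlap, and the gap was several times the difference between the arrays of a group.

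Psmb9, which replaces Psmb6, was at 8.4 and 8.4 without PBA and at 7.8 and 7.7 with it. It fell by 0.65 (SE 0.10, 95% interval -0.88 to -0.42, adjusted p = 0.0088). Psmb10, which replaces Psmb7, was at 9.2 and 9.0 without PBA and at 8.3 and 8.4 with it, a fall of 0.75 (SE 0.12, 95% interval -1.03 to -0.47, adjusted p = 0.0110). Neither gene's groups overlapped. By itself this lack of overlap, also seen for Psmb8, is common with PBA in hIAPP islets. On the deposited scale 43.5% of all genes showed it there, 20.8% with PBA lower.

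The 3 genes made 3 of 47 past the threshold, and all 3 fell. Over all 17097 genes 8.09% passed, 1.78% higher and 6.32% lower, so the count over the whole family lies near that background. At an unadjusted p under 0.05 there were 4 of 47 (8.51%), the fourth being the inhibitor gene Psmf1, against 23.0% of all genes. The median change was 0.05 over the 47 genes and 0.00 over all genes. Without the immunoproteasome subunits, the other 44 changed by -0.30 to 0.40. With array medians subtracted the 3 subunits still fell, by 0.35 (Psmb8, adjusted p = 0.0465), 0.45 (Psmb9, adjusted p = 0.0224) and 0.55 (Psmb10, adjusted p = 0.0228). On that scale 6 other genes rose, namely Psmb2, Psmb5, Psmd11, Psme3, Psmf1 and Psmg1.

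The calls rest on few arrays. The count was 0 of 47 without any 1 of the 4 hIAPP arrays, with changes of -0.60 to -0.50 for Psmb8, -0.70 to -0.60 for Psmb9 and -0.85 to -0.65 for Psmb10 over all 8 single omissions. It was also 0 without both arrays named above, where Psmb8 was at -0.60 (adjusted p = 0.1155), Psmb9 at -0.70 (adjusted p = 0.1155) and Psmb10 at -0.70 (adjusted p = 0.1409), and 0 with the acinar level as a covariate, where the changes were -0.58, -0.75 and -0.70. With only the 4 hIAPP arrays fitted it was 0 as well. With the median of a gene's probe sets only Psmb10, which has 1, passed. The second probe set of Psmb8 was at 3.3 to 3.7 on all arrays, and those of Psmb9 at 3.4 to 3.8 and 5.3 to 6.4. The last of these, above 4.685 on all arrays, was at 5.9 and 6.3 in untreated hIAPP islets and at 6.1 and 5.3 with PBA. It changed by -0.40 in hIAPP and -0.25 in wild-type islets, with overlapping groups in both.

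**Figure D1:**
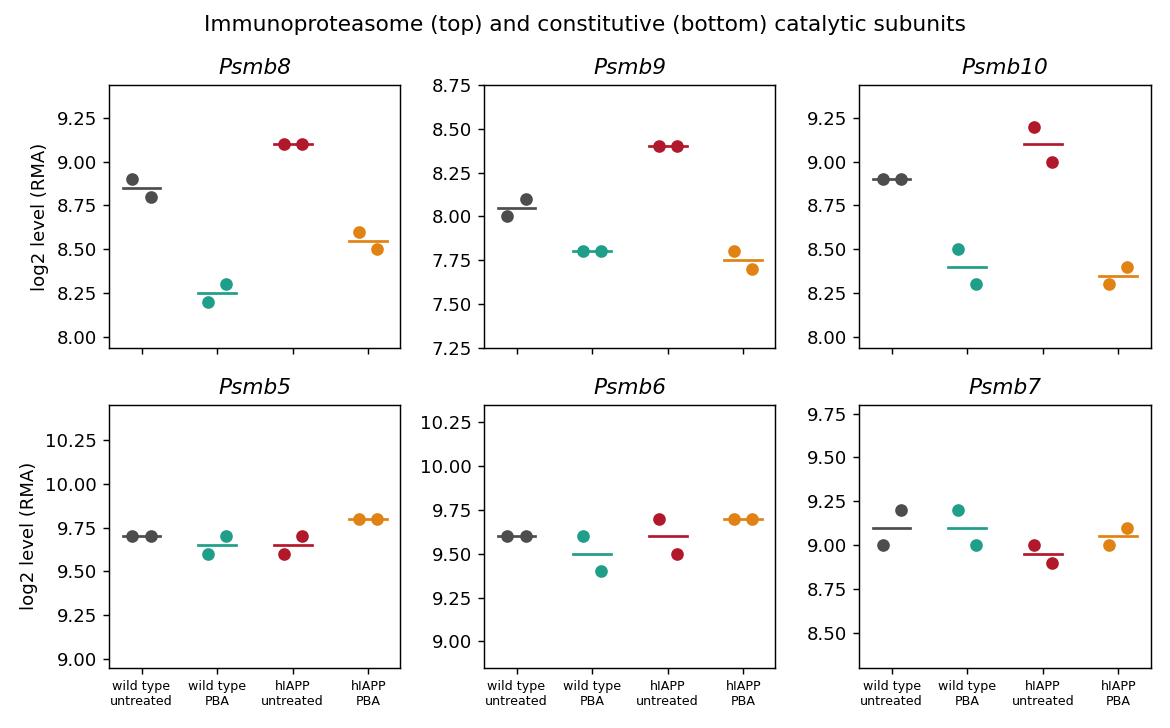
Log2 RMA level of the immunoproteasome subunits Psmb8, Psmb9 and Psmb10 (top) and of Psmb5, Psmb6 and Psmb7, which they replace (bottom), in the 4 groups; points are the 2 arrays, lines their means, and every panel spans the same height. The PBA-treated arrays lie below the untreated arrays of the same genotype for the 3 top genes, for example 8.6 and 8.5 against 9.1 and 9.1 for Psmb8 in hIAPP islets.

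In wild-type islets PBA went with lower values of the same 3 genes, none of which passed the test. Psmb8 was at 8.9 and 8.8 untreated and at 8.2 and 8.3 with PBA, a change of -0.60 (SE 0.10, 95% interval -0.83 to -0.37, adjusted p = 0.0870). Psmb10 was at 8.9 and 8.9 untreated and at 8.5 and 8.3 with PBA (-0.50, SE 0.12, adjusted p = 0.2204). Psmb9 was at 8.0 and 8.1 untreated and at 7.8 and 7.8 with PBA (-0.25, SE 0.10, adjusted p = 0.4127). The 2 groups did not overlap for any of the 3, which by itself is common with 2 arrays a group: 28.5% of all genes showed it, 14.9% with PBA lower. Psmb8, Psmb9 and Psmb10 were the 3 of 47 genes (6.38%) that lay lower with PBA without overlap in both genotypes, against 4.47% of all genes.

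By limma, 0 of 47 genes passed in wild-type islets, where 0.292% of all genes did, and 7 of 47 (14.9%) had an unadjusted p under 0.05, against 10.5% of all genes. Those 7 were the 3 immunoproteasome subunits, Psmb11, Psme1, Psme3 and Psme3ip1. Psmb8 alone passed when dim genes were left out or when the variance was allowed to follow the level. The median change over the 47 genes was -0.05, against 0.00 over all genes.

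The genotype by PBA interaction, the difference between the 2 PBA effects, passed for 0 of 47 genes by limma, against 1.96% of all genes, and 1 gene had an unadjusted p under 0.05, against 16.2% of all genes. That gene was Psmb9 (-0.40, SE 0.14, 95% interval -0.72 to -0.08, adjusted p = 0.2033). The interaction was 0.05 for Psmb8 (95% interval -0.28 to 0.38) and -0.25 for Psmb10 (-0.64 to 0.14). These intervals include differences as large as a good part of the PBA effects themselves, so equal effects in the 2 genotypes are not shown.

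The PBA effect averaged over the 2 genotypes, a comparison added after the values had been seen, uses the same 8 arrays. Psmb8 fell by 0.58 (SE 0.07, adjusted p = 0.0082), Psmb10 fell by 0.63 (SE 0.08, adjusted p = 0.0098) and Psmb9 fell by 0.45 (SE 0.07, adjusted p = 0.0143). They were again 3 of 47, against 5.57% of all genes (1.29% higher, 4.28% lower). No other proteasome gene passed, the nearest being Psme3 (0.23, adjusted p = 0.1058), which passed with array medians subtracted. The count was 0 without array 1 of PBA-treated wild-type islets, 0 without array 1 of untreated hIAPP islets and 1 or 2 without any other array.

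Untreated hIAPP islets stood above untreated wild-type islets for the immunoproteasome subunits, but no gene passed the test and the values depended on the scaling. Psmb9 differed by 0.35 (SE 0.10, adjusted p = 0.0617), Psmb8 by 0.25 (SE 0.10, adjusted p = 0.1702) and Psmb10 by 0.20 (SE 0.12, adjusted p = 0.3526). With array medians subtracted the 3 values were 0.15, 0.05 and 0.00. On the deposited scale the partners Psmb5, Psmb6 and Psmb7 changed by -0.05, 0.00 and -0.15. Taken within each array against these partners, Psmb8, Psmb9 and Psmb10 were higher by 0.30, 0.35 and 0.35, which was not tested. By limma 0 of 47 genes passed, while 11.0% of all genes did (7.77% higher, 3.19% lower), and 4 (8.51%) had an unadjusted p under 0.05, namely Psma7, Psmb8, Psmb9 and Psmf1, against 25.1% of all genes. On the subtracted scale 7 genes passed, all lower in hIAPP islets: Psmb2, Psmc3ip, Psmc5, Psmd1, Psmd11, Psmf1 and Psmg1.

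Under PBA the 2 genotypes were close. Psmb8 stood 0.30 higher in hIAPP islets (adjusted p = 0.3087), while Psmb9 and Psmb10 each differed by -0.05. By limma 0 of 47 genes passed, against 0.421% of all genes, and 3 (6.38%) had an unadjusted p under 0.05, against 12.1% of all genes. They were Psmb8, Psmb1 and the ubiquitin receptor gene Psmd4, which was at 9.4 and 9.6 in wild type and at 9.8 and 9.8 in hIAPP islets. Another detected probe set of Psmd4 was not higher in hIAPP islets, at 9.1 and 9.0 in wild type and at 8.8 and 9.0 in hIAPP islets. Across the 4 groups Psmb8 was thus highest in untreated hIAPP islets, followed by untreated wild type, PBA-treated hIAPP and PBA-treated wild-type islets, with no overlap between neighbours. For Psmb9 and Psmb10 the 2 PBA-treated groups were lowest and overlapped each other.

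**Figure D2:**
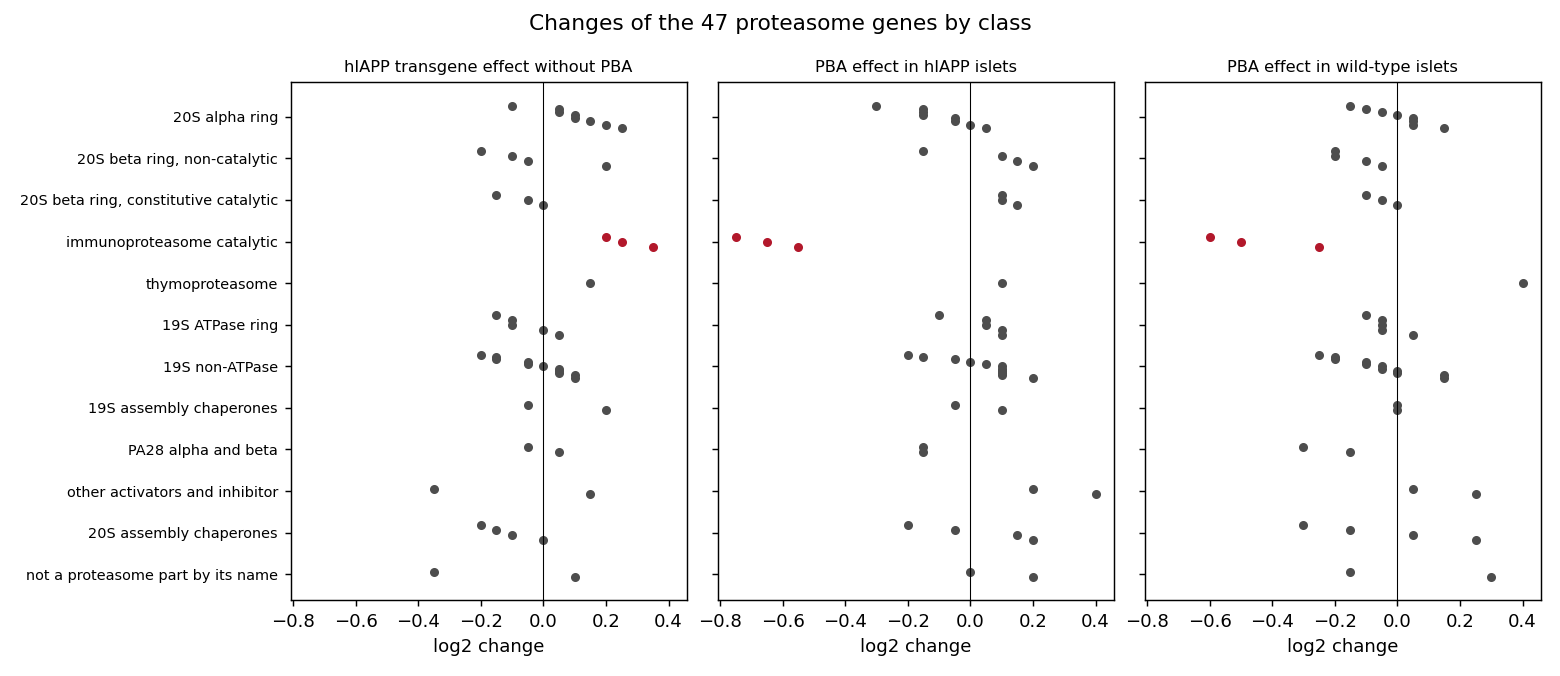
Log2 change of the 47 genes, 1 point each, grouped by role, for the transgene in untreated mice (left), PBA in hIAPP islets (middle) and PBA in wild-type islets (right); red marks the immunoproteasome subunits. In hIAPP islets they lie at -0.75 to -0.55 and every other gene between -0.30 and 0.40; the left and middle panels share the untreated hIAPP arrays.

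The constitutive catalytic subunits showed no such fall. Psmb5, the chymotrypsin-like subunit, was at 9.7 and 9.7 in untreated wild type, 9.6 and 9.7 in PBA-treated wild type, 9.6 and 9.7 in untreated hIAPP and 9.8 and 9.8 in PBA-treated hIAPP islets. Psmb6, the caspase-like subunit, was at 9.6 and 9.6, then 9.6 and 9.4, then 9.7 and 9.5, and 9.7 and 9.7 in the same order. Psmb7, the trypsin-like subunit, was at 9.0 and 9.2, 9.2 and 9.0, 9.0 and 8.9, and 9.0 and 9.1. Each gene's groups overlapped or lay within 0.2 of each other.

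With PBA in hIAPP islets they changed by 0.15 (Psmb5, 95% interval -0.08 to 0.38), 0.10 (Psmb6, -0.17 to 0.37) and 0.10 (Psmb7, -0.19 to 0.39). All 3 lower bounds lie above -0.55, the change of Psmb8. In wild-type islets the changes were -0.05, -0.10 and 0.00.

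The difference between an immunoproteasome subunit and the subunit it replaces, taken within each array, is free of any shift of the whole array; its level depends on the probes and only its change between arrays is read. Psmb8 minus Psmb5 was -0.80 and -0.90 in untreated wild type, -1.40 and -1.40 in PBA-treated wild type, -0.50 and -0.60 in untreated hIAPP and -1.20 and -1.30 in PBA-treated hIAPP islets. It changed by -0.70 with PBA in hIAPP islets and by -0.55 in wild type, and the 4 groups did not overlap. Psmb9 minus Psmb6 changed by -0.75 with PBA in hIAPP islets and by -0.15 in wild type, where the groups overlapped. Psmb10 minus Psmb7 changed by -0.85 and by -0.50. Between the untreated genotypes the 3 differences were higher in hIAPP islets by 0.30, 0.35 and 0.35. No test was made of these differences.

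**Figure D3:**
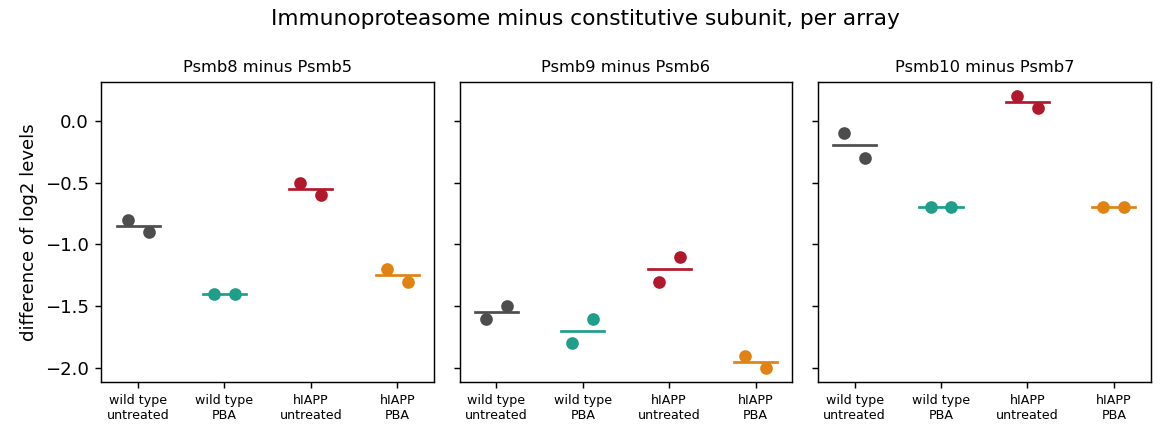
Log2 level of each immunoproteasome subunit minus that of the constitutive subunit it replaces, per array, in the 4 groups; points are the 2 arrays and lines their means. Within each genotype the group mean of all 3 differences is lower with PBA, for example -1.20 and -1.30 against -0.50 and -0.60 for Psmb8 minus Psmb5 in hIAPP islets.

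The structural genes of the core moved little. The 7 detected alpha ring genes differed by at most 0.25 between any 2 groups compared. Psma7 was at 10.1 and 10.2 in untreated wild type, 10.3 and 10.3 in PBA-treated wild type, 10.4 and 10.4 in untreated hIAPP and 10.2 and 10.3 in PBA-treated hIAPP islets, and its 0.25 for the transgene did not pass (adjusted p = 0.1563) and was 0.05 with array medians subtracted. Psma6 was at 10.1 and 10.2, 9.8 and 10.2, 10.3 and 10.1, and 10.2 and 10.3, so the low value was 1 array. Among the non-catalytic beta genes, Psmb1 was at 9.8 and 9.9, 9.6 and 9.7, 9.8 and 9.8, and 9.9 and 9.9. Psmb2 was at 10.0 and 10.0, 9.9 and 10.0, 9.8 and 9.8, and 10.0 and 10.0, lowest in untreated hIAPP islets by 0.20 (adjusted p = 0.2365). Psmb3 was at 9.6 and 9.5, 9.2 and 9.5, 9.8 and 9.7, and 9.6 and 9.6, and its lowest value came from array 1 of PBA-treated wild-type islets.

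None of the 19S genes passed in any comparison on the deposited scale. The 5 ATPase genes, which unfold the substrate, changed by -0.15 to 0.15. Psmc5 was at 9.9 and 9.9, 9.9 and 9.8, 9.7 and 9.8, and 9.8 and 9.8 in the same order of groups, and Psmc1 at 9.3 and 9.1, 9.1 and 9.2, 9.2 and 9.2, and 9.4 and 9.2. Psmc4 was at 9.1 and 9.3, 9.2 and 9.1, 9.0 and 9.2, and 9.0 and 9.4. The groups of these genes overlapped in most pairs. The 11 non-ATPase genes, among them the deubiquitinase gene Psmd14, changed by -0.25 to 0.30. Psmd3 was at 8.8 and 8.7, 8.3 and 8.7, 8.9 and 8.8, and 8.7 and 8.7, again with the low value on array 1 of PBA-treated wild-type islets. Psmd11, a gene of the lid, was at 9.0 and 9.0, 8.9 and 8.9, 8.9 and 8.8, and 9.1 and 9.0, lower with PBA in wild type and higher in hIAPP islets by at most 0.20. Another detected probe set of Psmd11 changed by 0.05 with PBA in wild type, with overlap, and by 0.25 in hIAPP islets. The assembly chaperone gene Psmd9 was at 7.1 and 7.4, 7.2 and 7.3, 7.6 and 7.3, and 7.5 and 7.3, with all groups overlapping. Psmd5, another 19S chaperone gene, stayed between 8.5 and 8.6.

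Psme1 and Psme2 encode PA28 alpha and beta, an interferon-inducible cap that opens the core. Psme1 was at 9.9 and 9.8, 9.6 and 9.5, 9.7 and 9.9, and 9.7 and 9.6, and Psme2 at 10.1 and 10.2, 10.1 and 9.9, 10.2 and 10.2, and 10.1 and 10.0. With PBA Psme1 changed by -0.15 in hIAPP islets (adjusted p = 0.4812) and by -0.30 in wild type (adjusted p = 0.4127), and Psme2 by -0.15 in both (adjusted p = 0.4694 and 0.6563). Neither passed, and with array medians subtracted both changes in hIAPP islets turned to 0.05. Psme3, the nuclear activator PA28 gamma, was higher with PBA by its brighter probe set: 7.1 and 7.0, 7.3 and 7.3, 7.2 and 7.2, and 7.4 and 7.4. Its groups did not overlap within a genotype, as for 43.5% of all genes in hIAPP and 28.5% in wild-type islets. The changes were 0.20 in hIAPP (adjusted p = 0.2539) and 0.25 in wild-type islets (adjusted p = 0.4127). With array medians subtracted the change in hIAPP islets was 0.40 (adjusted p = 0.0277). The second probe set of Psme3, also above the background limit, changed by 0.30 in hIAPP islets. In wild type it changed by -0.10, at 5.2 and 5.3 untreated and 5.4 and 4.9 with PBA.

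Psmf1, which encodes the proteasome inhibitor PI31, was lowest in untreated hIAPP islets, at 7.5 and 7.4, against 7.9 and 7.7 in untreated wild type, 7.9 and 7.8 in PBA-treated wild type and 7.8 and 7.9 in PBA-treated hIAPP islets. Its change was -0.35 for the transgene (SE 0.11, adjusted p = 0.0989) and 0.40 for PBA in hIAPP islets (SE 0.11, adjusted p = 0.0789). Neither passed on the deposited scale. Both passed with array medians subtracted, at -0.55 (adjusted p = 0.0168) and 0.60 (adjusted p = 0.0174). The other three probe sets of Psmf1 had values of -0.20, -0.55 and -0.55 for the transgene, and 0.20, 0.30 and 0.45 for PBA in hIAPP islets.

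The 4 chaperone genes that assemble the 20S core did not pass either. Psmg2 was at 8.9 and 8.9, 9.4 and 8.9, 8.7 and 8.8, and 8.9 and 8.9, and Psmg4 at 7.2 and 7.2, 7.1 and 6.7, 7.2 and 7.2, and 7.1 and 7.2. In both, 1 array of PBA-treated wild-type islets gave the extreme value. Psmc3ip, which is no proteasome part, was at 7.6 and 7.5, 7.2 and 7.6, 7.2 and 7.2, and 7.5 and 7.3. Pomp, the chaperone needed to mature the immunoproteasome core, stayed at 10.1 to 10.3 on all arrays.

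Regulators and partners of the proteasome changed singly. Nfe2l1, which encodes the factor that raises proteasome genes, was at 9.3 and 9.3, 9.5 and 9.5, 9.6 and 9.5, and 9.4 and 9.3, and did not pass for PBA in hIAPP islets (-0.20, adjusted p = 0.2731; 0.00 with array medians subtracted). Of 6 genes around it, 2 rose with the transgene, and 1 rose and 1 fell with PBA in hIAPP islets. Nfe2l2, the oxidative stress factor Nrf2, was at 9.2 and 9.2 in untreated hIAPP islets and 8.6 and 8.7 with PBA and fell by 0.55 (adjusted p = 0.0154). Its rise of 0.40 with the transgene (adjusted p = 0.0403) became 0.20 (adjusted p = 0.1523) with array medians subtracted. Syvn1, the ER ubiquitin ligase Hrd1, rose by 0.85 with PBA in hIAPP islets (adjusted p = 0.0133). Nfe2l3 rose with the transgene by 0.60 (adjusted p = 0.0406), from 3.1 and 3.4 to 3.8 and 3.9, all under the background limit.

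Of 9 other proteins bound to the proteasome, Ecpas, a 26S adaptor, fell by 0.55 with the transgene (adjusted p = 0.0223), and the redox protein gene Txnl1 rose by 0.50 with PBA in hIAPP islets (adjusted p = 0.0288). Of 9 shuttle and p97 cofactor genes, Nploc4 fell by 0.45 with the transgene (adjusted p = 0.0292) and rose by 0.45 with PBA in hIAPP islets (adjusted p = 0.0362). Of 8 genes of ubiquitin activation and conjugation, Ube2c, a mitotic enzyme, was under the background limit in untreated wild-type islets, at 3.7 and 3.4, and above it in untreated hIAPP and in PBA-treated wild-type islets, at 5.4 and 5.7 in each, so the size of these rises (adjusted p = 9.5e-04 and 0.0189) is not given. It fell by 0.90 with PBA in hIAPP islets (adjusted p = 0.0260). Ube2l6, the conjugating enzyme of the interferon-induced modifier Isg15, was at 4.9 and 5.1 in untreated hIAPP islets and under the background limit with PBA, at 4.3 and 4.4 (adjusted p = 0.0444); that call was lost with array medians subtracted (-0.45, adjusted p = 0.0716).

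Genes of the interferon pathway, which induces the immunoproteasome, changed in part. Of 20 measured, 4 rose and 1 fell with the transgene and 4 fell with PBA in hIAPP islets. Over all genes 7.77% rose and 3.19% fell with the transgene, and 6.32% fell with PBA in hIAPP islets. The medians of the list were 0.18 and -0.25, against -0.05 and 0.00 over all genes. With array medians subtracted 4 rose and 2 fell with the transgene, and 4 fell with PBA. Gbp2, an interferon-induced GTPase gene, was at 8.0 and 8.0 in untreated hIAPP islets and 6.8 and 6.7 with PBA and fell by 1.25 (adjusted p = 0.0028). The receptor gene Ifngr1 fell by 0.80 (adjusted p = 0.0083) and Irf8, a factor of myeloid cells, fell by 1.40 (adjusted p = 0.0129). Irf9, a factor of interferon signalling, was at 7.1 and 7.0 in untreated wild-type islets and at 6.3 to 6.6 on the other 6 arrays, and fell by 0.65 with the transgene (adjusted p = 0.0100). With PBA in wild-type islets 0 of the 20 passed by limma, and 3 had an unadjusted p under 0.05, against 10.5% of all genes.

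The factors that act on immunoproteasome genes themselves did not pass. Irf1 was at 8.1 and 8.1, 7.8 and 8.0, 8.3 and 8.3, and 8.1 and 8.1, with -0.20 for PBA in both genotypes (adjusted p = 0.3016 in hIAPP and 0.5456 in wild-type islets); with array medians subtracted the change in hIAPP islets was 0.00. Nlrc5, the MHC class I transactivator, was at 3.3 to 4.5, under the background limit. Of 10 genes of MHC class I presentation, 0 passed by limma with the transgene or with PBA in either genotype. At an unadjusted p under 0.05 by limma there were 2 with PBA in wild-type islets, against 10.5% of all genes. There were 0 with the transgene without PBA, with PBA in hIAPP islets and for the interaction, against 25.1%, 23.0% and 16.2%. Under PBA 2 were higher with the transgene, against 12.1% of all genes. For the averaged PBA effect there were 4, all lower, against 19.8% of all genes, and 0 passed. With array medians subtracted 1 rose with PBA in hIAPP islets. The list had medians of 0.03 for the transgene, 0.00 for PBA in hIAPP islets and -0.15 for PBA in wild-type islets. Tap1 and B2m are not analysed here.

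Markers of several other cell types moved with the immunoproteasome subunits, and beta-cell markers moved the other way. Of 8 beta-cell markers 7 were below 0 with the transgene (median -0.35), and 1 fell by the test. With PBA in hIAPP islets 7 were above 0 (median 0.43), and 1 rose by the test. All 16 macrophage markers were measured, 13 rose with the transgene and 13 fell with PBA in hIAPP islets, and 1 fell with PBA in wild-type islets. Over all genes 7.77% rose with the transgene, 6.32% fell with PBA in hIAPP islets and 0.292% passed with PBA in wild-type islets. In wild-type islets 15 of the 16 were below 0 and 12 had an unadjusted p under 0.05, against 10.5% of all genes. The 16 had a median change of -0.58 there, beside -0.50 for the 3 immunoproteasome subunits. Their median level was 6.70 and 6.55 in untreated wild type, 6.10 and 6.25 in PBA-treated wild type, 8.95 and 8.70 in untreated hIAPP and 7.70 and 7.60 in PBA-treated hIAPP islets, and the log2 of their summed linear level ran from 11.06 to 11.48 in wild-type, 13.14 to 13.41 in untreated hIAPP and 12.34 to 12.44 in PBA-treated hIAPP islets. Set beside the untreated wild-type arrays, the PBA-treated hIAPP arrays had higher macrophage levels and lower values of Psmb8, Psmb9 and Psmb10. Marker levels of other cell types differed between the groups as well, and any link of the macrophage level to the subunits was not tested. Of 17 connective tissue markers 13 fell with PBA in hIAPP islets, as did 9 of 12 endothelial, 3 of 7 dendritic cell and 2 of 9 T and NK cell markers. Of 7 B lymphocyte and plasma cell markers 0 passed by limma. In hIAPP and wild-type islets 3 and 2 had an unadjusted p under 0.05 with PBA, against 23.0% and 10.5% of all genes. The 7 nonetheless had a median change with PBA of -1.15 in hIAPP and -1.10 in wild-type islets. Their median level was 6.6 and 4.8 in untreated wild type, 4.5 and 4.6 in PBA-treated wild type, 6.8 and 7.0 in untreated hIAPP and 5.9 and 5.2 in PBA-treated hIAPP islets. Of 20 acinar markers 19 were below 0 with PBA in hIAPP islets, with a median of -2.20, while 2 fell and 1 rose by the test. In whole islets fewer cells of a type and less RNA per cell cannot be told apart, and the part of these cells in the fall of the immunoproteasome subunits was not tested.

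**Figure D4:**
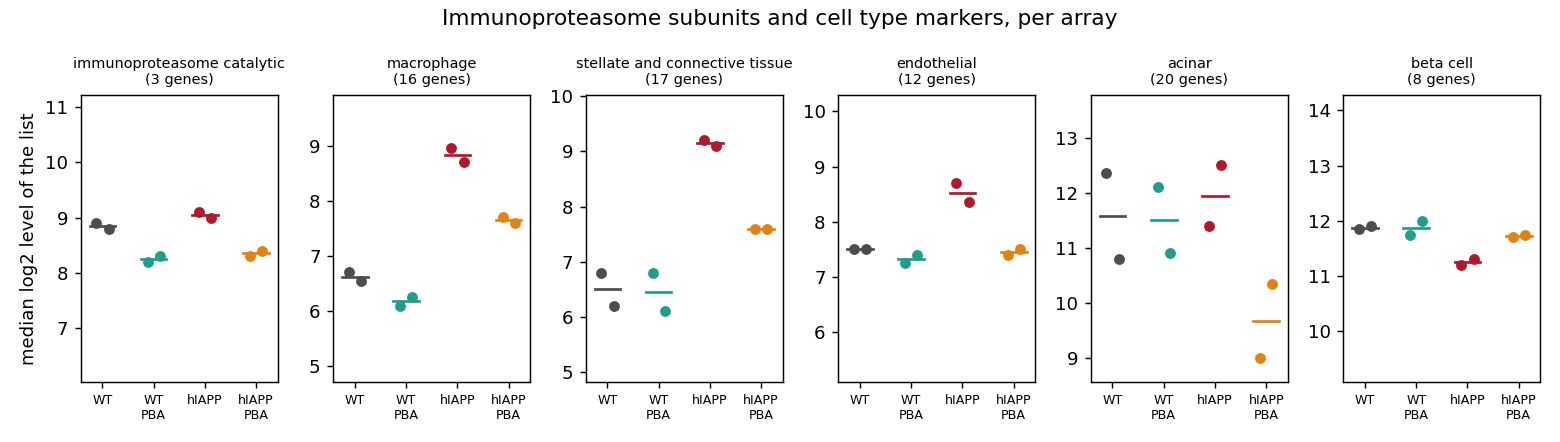
Median log2 level of the immunoproteasome subunits and of 5 lists of cell type markers on each array, in the 4 groups; points are arrays, lines their means, and each panel spans the same height around its own mean. The macrophage median runs 6.70 and 6.55, 6.10 and 6.25, 8.95 and 8.70, and 7.70 and 7.60 from left to right.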

How the data were processed

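The authors deposited log2 expression values from RMA, run with the affy package per the submitters' processing notes; versions and array filters are not given in the sources used here. Of 45141 probe sets, 28898 named 1 gene symbol in the platform annotation, 551 several and 15588 none, beside 104 controls. Each of the 17097 genes was represented by its probe set with the highest mean over 8 arrays. Group means were fitted to all 8 arrays with limma 3.58.1 (R 4.3.3), two-sided, with 4 residual degrees of freedom. Benjamini-Hochberg adjustment covered all genes tested, at a threshold of 0.05. The number of arrays limits the precision. The fit was tested on simulated data.

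The proteasome genes, their classes and the other lists were chosen with earlier results of these data known. The genes given array by array were the catalytic subunits, Psme1, Psme2, every gene past the threshold and the largest rise and fall of each class; from other lists, up to 4 genes past the threshold and several regulators. Psme3 and Psmd5 were added after their values were seen. Alternatives covered dim genes, probe set choice, arrays fitted, replicate block, variance trend, scaling, acinar level and single omissions. RNA came from islets with a column kit and was labelled with biotin.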

Additional observations from a re-analysis of the deposited data

Results flagged for a closer look

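For 3 genes every PBA-treated array lay above the untreated arrays in 1 genotype and below them in the other. Psma7, an alpha ring gene, was higher with PBA in wild-type islets and lower in hIAPP islets, with an interaction of -0.30 (adjusted p = 0.3277, limma). Psmb1, a beta ring gene, was lower with PBA in wild-type and higher in hIAPP islets (0.30, adjusted p = 0.3277). Psmd11, a gene of the 19S lid, did the same (0.30, adjusted p = 0.3277). Of all 17097 genes 872 (5.10%) showed such a pattern, against these 3 of 47 (6.38%). With array medians subtracted Psma7 no longer did, since its change in hIAPP islets became 0.05. None of the interactions passed the threshold, and each step was at most 0.20 on values rounded to 0.1. Another detected probe set of Psma7 and another of Psmd11 did not show the pattern, since their wild-type groups overlapped. That of Psma7 was at 9.6 and 9.7 untreated and 9.7 and 9.7 with PBA, and that of Psmd11 at 8.6 and 8.6, then 8.5 and 8.8.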

How the results depend on the processing

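The falls of Psmb8, Psmb9 and Psmb10 with PBA in hIAPP islets stayed below 0 in all 16 alternatives, at -0.60 to -0.33, -0.75 to -0.40 and -0.85 to -0.55, and were past the threshold in 8, 8 and 9 of them. The count of 3 genes became 1 (Psmb10) with the median of a gene's probe sets, where the second probe set of Psmb8 lies at background. It became 0 with only the 4 hIAPP arrays, 0 with the acinar covariate, 0 without both doubted arrays, 9 with array medians subtracted, and 0 to 3 without single arrays. For the averaged PBA effect the count of 3 became 1 with the probe set median, 0 with the acinar covariate, 0 without both arrays and 0 to 2 without single arrays. For the transgene without PBA the count of 0 became 1 with the dim filter (Psmb9), 1 with the probe set median (Psmf1), 2 with the variance trend (Psma7 and Psmb9) and 7 with array medians subtracted. For PBA in wild-type islets 0 became 1 (Psmb8) with the dim filter and with the variance trend. The count stayed 0 for the transgene under PBA and for the interaction under the alternatives run. The cause of these shifts was not tested. Psmb10 turned from -0.05 to 0.10 for the transgene under PBA without both doubted arrays and ran from -0.15 to 0.05 without single arrays, at 0.05 without array 1 of PBA-treated wild-type islets.

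The replicate block left the count of PBA in hIAPP islets at 3. Same-numbered arrays deviated from their group means with correlations of -0.14 to 0.098, so no strong deviation was shared by number over all genes. With 2 arrays a group this cannot tell whether same-numbered arrays were handled together, and the labels give no pairing. Values rounded to 0.1 and 2 arrays a group limit what can be seen.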
